A study of Homo sapiens with 8 samples.

Results

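The response of CAPAN-2 cells to knockdown of MUC4 was set beside their response to knockdown of ErbB2, gene by gene, over all 8 arrays of the series. CAPAN-2 is an established human pancreatic adenocarcinoma cell line. MUC4 is a membrane-bound mucin that carries EGF-like domains, and ErbB2 is a receptor tyrosine kinase of the EGF receptor family that has no ligand of its own and acts in dimers. Binding of the mucin to the receptor has been described in epithelial and pancreatic cancer cells, so genes that answer to both knockdowns and genes that answer to only one of them are the readouts of the comparison. Of 41000 probes, 23077 were bright enough in both experiments to be tested in both, and these stood for 11709 named genes, each taken at its brightest probe.

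The ErbB2-KD group held 4 arrays, numbered 1 to 4, of the clones EV7, EV12, EV9 and EV18, which were stably transfected with an shRNA plasmid against ErbB2 and selected with puromycin. Each was hybridised against the NT pool, which mixed 4 clones carrying the empty pGeneClip vector. The MUC4-KD group held 4 arrays of cells transduced with a retrovirus that encodes an shRNA against MUC4, whose clones the labels do not name, against the Mock pool of 4 clones carrying the empty pRetroSuper vector under G418 selection. All cells derive from the same line. The experiments share no control, each pool counts as 1 control sample whose own spread was not measured, and the vector, the drug and the target differ together, so that their parts in a difference cannot be told apart.

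Values are log2 ratios of the knockdown over its control pool, turned so that a positive value is higher in the RNA labelled as knockdown, and are given as the mean ± SD over 4 arrays unless stated. A gene is said to have risen, fallen or changed where limma gave an adjusted p under 0.05. The fit shares 1 estimate of the spread between the experiments, so an adjusted p does not rest on the SD of its own group alone. Ductal epithelial markers fitted the label, with 9 of 10 well above background in every channel, among them KRT7, KRT19, EPCAM and CDH1. None of 6 acinar markers, 1 of 6 endocrine, 1 of 6 fibroblast and 2 of 6 leukocyte markers was above background in every channel. Between 56.7% and 74.2% of probes per channel were well above background.

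The targeted genes were read first. ERBB2 gave -0.58, -0.32, -0.33 and -0.38 on ErbB2-KD arrays 1 to 4 at its brighter probe. Every array lay below the NT pool there, with a mean of -0.40 ± 0.12 that did not pass the test (adjusted p = 0.336). A much dimmer ERBB2 probe (mean log2 intensity 7.41 against 12.37) gave 0.04, 0.03, 0.06 and 0.01 (adjusted p = 0.904), so the probes did not give the same reading. The 4 MUC4 probes did not give 1 picture. One probe of MUC4 gave 1.71, 2.34, 2.21 and 1.08 on MUC4-KD arrays 1 to 4, and its mean of 1.84 ± 0.57 lay above that of the Mock pool (adjusted p = 0.00704). A second MUC4 probe averaged 1.34 ± 0.84 (adjusted p = 0.0114), and the brightest probe averaged 0.27 ± 0.23 (adjusted p = 0.295). None of the MUC4 probes had a mean below 0 on the MUC4-KD arrays, and none passed in ErbB2-KD, where the first averaged -1.0 ± 1.07 (adjusted p = 0.15). The first 2 probes differed between the experiments as labelled (adjusted p = 0.011 and 0.0237). The other 2 did not (adjusted p = 0.55 and 0.911), and none differed with MUC4-KD reversed. The brighter ERBB2 probe averaged -0.24 ± 0.66 on the MUC4-KD arrays (adjusted p = 0.409). The gene list of the study runs the other way for MUC4-KD, so the classes of genes and several lists are given as labelled and with the sign of MUC4-KD reversed. The other lists are given as labelled only. The term "labelled MUC4-KD" stands for the RNA that the array labels call knockdown.

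Reversal has a fixed effect on the classes of genes. A gene that changed in both experiments keeps its sizes and swaps between the same and the opposite direction. A gene whose size of change was larger in 1 knockdown, as judged by a test of the difference in both directions, stays where it is. The test of whether the experiments differ was therefore run on the difference as labelled and on the difference with MUC4-KD reversed.

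In ErbB2-KD, 306 genes rose (2.61% of those tested) and 381 fell (3.25%). In labelled MUC4-KD, 1647 genes rose (14.1%) and 1567 fell (13.4%). The calls were 1068 and 6147 by probe. They were 879 and 1545 where MUC4-KD array 1 was averaged with array 3 and array 2 with array 4. The median SD between arrays was 0.30 in ErbB2-KD and 0.29 in MUC4-KD. Both experiments called 260 genes, which is 37.8% of the ErbB2-KD genes and 8.09% of the MUC4-KD genes. Of these, 175 (1.49% of genes tested) moved the same way as labelled, 80 up and 95 down. The other 85 (0.726%) moved in opposite ways, 26 up in ErbB2-KD and down in labelled MUC4-KD and 59 the reverse. With MUC4-KD reversed the same genes read 85 alike and 175 opposed.

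The size of change was larger in MUC4-KD for 411 genes (3.51%), 220 of them higher and 191 lower as labelled. It was larger in ErbB2-KD for 160 genes (1.37%), 63 higher and 97 lower. The experiments differed for 1408 genes (12%) as labelled and for 2370 genes (20.2%) with MUC4-KD reversed. Across the 11709 genes the mean log2 ratios of the experiments were related by a Pearson r of 0.12 and a Spearman rho of 0.15, which describes genes that are not independent replicates. Of the genes called in both, 13 were also larger in MUC4-KD and 19 in ErbB2-KD.

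**Figure D1:**
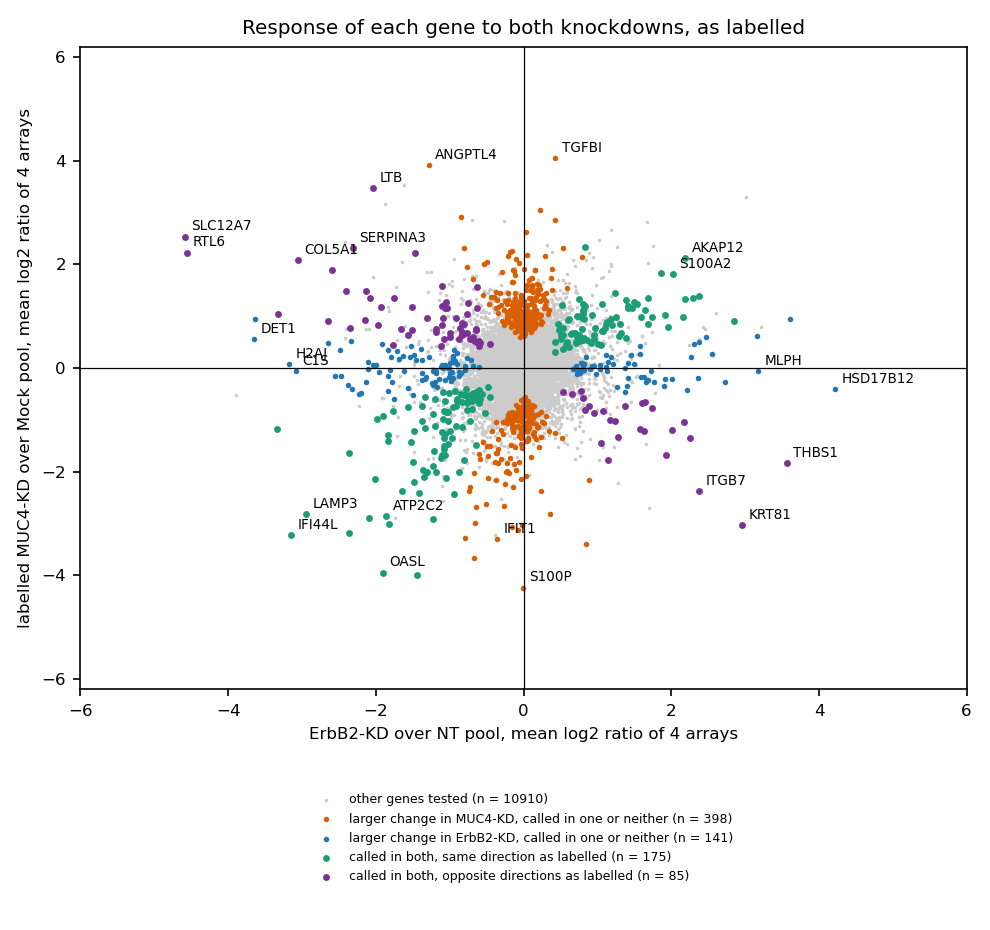
Mean log2 ratio of each of the 11709 genes in ErbB2-KD (x axis) and in labelled MUC4-KD (y axis), over 4 arrays each, coloured by class. Reversing MUC4-KD mirrors the plot at the x axis. KRT81, ITGB7 and THBS1 lie at the lower right and SLC12A7 and RTL6 at the upper left, while IFI44L, LAMP3 and OASL lie at the lower left.

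Interferon-stimulated genes, ATF4 targets, mitotic genes and hypoxia genes gave the group responses described first. The counts of every list are to be set beside the shares of all genes called. These were 2.61% up and 3.25% down in ErbB2-KD, and 14.1% up and 13.4% down in labelled MUC4-KD. Interferon-stimulated genes encode antiviral effectors and are switched on by the ISGF3 complex at interferon-stimulated response elements. ATF4 drives amino acid synthesis and transport when amino acids run short or the endoplasmic reticulum is stressed, by binding C/EBP-ATF response elements. Many genes of mitosis are timed through the cell cycle genes homology region close to their start, and hypoxia-inducible factors bind hypoxia response elements in genes of glycolysis and matrix processing. To show the regulatory letters that members of these lists carry, the 130 bases before the RefSeq start of 8 of them are printed 5′ to 3′ on the strand of the gene (GRCh38.p14), with motif matches on either strand in capitals. The motifs searched are GAAANNGAA for the interferon genes, TTTGAA for the mitotic genes, ACGTG for the hypoxia genes and TGATGNAA for the ATF4 genes. The printed starts were taken because they hold a match, so the capitals give no rate.
IFI44L, chr1:78620318-78620447, plus strand: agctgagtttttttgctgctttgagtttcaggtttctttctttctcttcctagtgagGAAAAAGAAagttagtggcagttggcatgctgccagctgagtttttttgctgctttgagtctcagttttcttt
IFI6, chr1:27672193-27672322, minus strand: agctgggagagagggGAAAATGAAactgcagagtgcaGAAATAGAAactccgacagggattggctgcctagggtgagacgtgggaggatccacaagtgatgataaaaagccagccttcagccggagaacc
IFITM1, chr11:313910-314039, plus strand: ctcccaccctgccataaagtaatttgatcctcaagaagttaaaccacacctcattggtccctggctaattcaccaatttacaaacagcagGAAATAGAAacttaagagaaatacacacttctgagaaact
IFIT1, chr10:89392493-89392622, plus strand: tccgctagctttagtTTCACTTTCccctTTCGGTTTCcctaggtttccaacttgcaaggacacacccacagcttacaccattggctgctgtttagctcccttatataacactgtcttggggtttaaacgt
ANLN, chr7:36389732-36389861, plus strand: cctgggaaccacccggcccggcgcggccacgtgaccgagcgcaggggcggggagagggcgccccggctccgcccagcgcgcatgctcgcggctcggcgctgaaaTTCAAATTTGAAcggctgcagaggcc
HMMR, chr5:163460502-163460631, plus strand: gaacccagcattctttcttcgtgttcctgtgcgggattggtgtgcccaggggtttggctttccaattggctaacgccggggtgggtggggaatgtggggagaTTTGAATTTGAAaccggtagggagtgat
LDHA, chr11:18394433-18394562, plus strand: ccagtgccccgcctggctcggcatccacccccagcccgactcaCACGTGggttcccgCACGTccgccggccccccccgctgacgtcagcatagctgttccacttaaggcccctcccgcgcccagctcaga
ASNS, chr7:97872409-97872538, minus strand: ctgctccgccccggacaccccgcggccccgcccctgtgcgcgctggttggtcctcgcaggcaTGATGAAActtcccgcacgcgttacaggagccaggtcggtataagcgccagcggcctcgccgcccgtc

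Over whole windows of 300 bases around a start, the interferon motif was in 27 of 37 windows of the interferon-stimulated genes, or 73%, and in 8.11% of all 35116 RefSeq windows. The mitotic motif was in 27 of 44 windows (61.4%) against 15.2% of all, and the hypoxia motif was in 25 of 51 windows (49%) against 21.4% of all. The ATF4 motif was in 8 of 37 windows (21.6%) against 3.62% of all. The neighbouring matches of LDHA that read CACGTG are 1 palindrome counted on both strands. A match describes letters in a window and is no evidence of a bound site.

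Nearly all interferon-stimulated effectors fell in labelled MUC4-KD and some of them fell in ErbB2-KD. Of 36 effectors tested, 35 fell in labelled MUC4-KD and 13 fell in ErbB2-KD, none rose in either, and all 13 of ErbB2-KD were among the 35. The median effector stood at -2.13 in labelled MUC4-KD and at -0.84 in ErbB2-KD, where the median of all genes was -0.01 and 0. The size was larger in MUC4-KD for 16 effectors and larger in ErbB2-KD for none. With MUC4-KD reversed, the effectors would be higher in MUC4-KD and lower in ErbB2-KD, and the experiments then differed for all 36, against 16 as labelled.

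IFI44L, an interferon-induced protein of the IFI44 family, was among the most changed of them. IFI44L read -3.33, -3.53, -4.24 and -1.48 in ErbB2-KD and -3.56, -3.56, -3.48 and -2.26 in labelled MUC4-KD. All 8 arrays lay below 0 and the groups overlapped, with means of -3.15 ± 1.18 (adjusted p = 0.0027) and -3.22 ± 0.64 (adjusted p = 0.00121). The knockdown channel of ErbB2-KD was well above background for IFI44L on 2 of 4 arrays. OASL, an antiviral protein related to the oligoadenylate synthetases, read -1.34, -2.05, -3.05 and -1.22 in ErbB2-KD. Its labelled MUC4-KD values of -4.50, -3.49, -4.11 and -3.71 all lay below those of ErbB2-KD, and the difference of -2.04 (SE 0.40) passed the test (adjusted p = 0.0155).

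IFI6, which restrains apoptosis in interferon-treated cells, averaged -2.09 ± 0.94 and -2.90 ± 0.55, and IFITM1, a membrane protein that blocks virus entry, averaged -2.01 ± 0.90 and -2.14 ± 0.41. LAMP3, a lysosomal membrane protein, averaged -2.94 ± 1.72 in ErbB2-KD and -2.82 ± 0.15 in labelled MUC4-KD. Its ErbB2-KD arrays spread from -0.70 on array 1 to -4.62 on array 2. KLHDC7B, which is in no list, averaged -2.37 ± 1.23 and -3.18 ± 0.34, with ErbB2-KD array 1 at -0.52 and the other ErbB2-KD arrays between -2.89 and -3.07. IFIT1, an RNA-binding antiviral protein, did not pass in ErbB2-KD, where it read -0.57, -0.79, 0.20 and -0.29. Its labelled MUC4-KD values were -3.92, -3.0, -3.64 and -2.65, and its size was larger in MUC4-KD in both directions (adjusted p = 0.00174 as labelled and 0.000431 reversed). MX2 and ISG15, an antiviral GTPase and a ubiquitin-like modifier, were also larger in MUC4-KD, at -1.44 ± 0.89 against -3.99 ± 0.34 and at -0.66 ± 0.72 against -2.99 ± 0.38.

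The 4 ErbB2-KD clones were not alike for these genes. The median effector stood at -0.43, -1.39, -1.37 and -0.44 on ErbB2-KD arrays 1 to 4 and at -2.70, -2.21, -2.44 and -1.66 on MUC4-KD arrays 1 to 4. Arrays 2 and 3 of ErbB2-KD carried the larger fall, and no ErbB2-KD array reached the smallest MUC4-KD median. The count of 13 in ErbB2-KD was 4 without array 3, 7 without array 2, and 12 without array 1 or array 4. In bulk RNA, fewer cells of a type and less RNA per cell cannot be told apart. The count of 35 in labelled MUC4-KD stayed between 30 and 36 without any 1 array, and the count of 16 larger in MUC4-KD between 9, without MUC4-KD array 3, and 19, without MUC4-KD array 4. It was 10 without ErbB2-KD array 4 or MUC4-KD array 1. With each array centred on its median in place of loess, 6 of the 36 effectors fell in labelled MUC4-KD and none in ErbB2-KD. Their medians were then -2.0 and -0.88. The median difference as labelled was -0.98, -0.21 and -1.99 within slides 1, 2 and 3, each of which held arrays of both experiments.

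Antigen presentation by MHC class I, which displays peptides cut by the proteasome and moved by the TAP transporter, followed with a similar size in each. Of 21 genes tested, 9 fell in ErbB2-KD and 12 in labelled MUC4-KD, 7 fell in both and 1 rose in labelled MUC4-KD. The medians were -0.55 and -0.53, and no member differed as labelled, while 15 differed with MUC4-KD reversed. TAP1, a subunit of the peptide transporter, read -1.01, -2.56, -1.36 and -1.01 in ErbB2-KD and -1.33, -1.34, -1.12 and -1.08 in labelled MUC4-KD. HLA-E averaged -1.06 ± 0.63 and -1.68 ± 0.24. PSMB9, an immunoproteasome subunit, fell in ErbB2-KD at -1.54 ± 0.96 (adjusted p = 0.0213) and stood at -0.41 ± 0.37 in labelled MUC4-KD (adjusted p = 0.342), a difference that did not pass (adjusted p = 0.116). The HLA genes are near-identical in parts, so a probe may read more than 1 of them. The count of 9 in ErbB2-KD was 2 without array 3 and 5 without array 2 or array 4, and the count of 12 in labelled MUC4-KD was 7 without MUC4-KD array 1, 2 or 3. Of 17 sensors of double-stranded RNA and interferon factors, 3 fell in ErbB2-KD and 10 in labelled MUC4-KD, where 1 rose, and 5 were larger in MUC4-KD. The count of 5 was 2 without ErbB2-KD array 1 or 4 or MUC4-KD array 1, 2 or 3, and 3 without ErbB2-KD array 3, and the count of 3 in ErbB2-KD was 0 to 3 over the 8 fits that left out 1 array.

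Most ATF4 targets fell in labelled MUC4-KD and a smaller set fell in ErbB2-KD. Of 28 tested, 21 fell in labelled MUC4-KD and 6 in ErbB2-KD, all 6 fell in both, and none rose in either. The medians were -1.41 and -0.65, and 6 members were larger in MUC4-KD, or 10 without MUC4-KD array 4. The experiments differed for 6 members as labelled and for 21 with MUC4-KD reversed. TRIB3, a pseudokinase induced by ATF4, read -0.47, -1.64, -1.26 and -1.49 in ErbB2-KD and -2.40, -3.28, -2.55 and -3.44 in labelled MUC4-KD. The groups did not overlap, and the difference passed in both directions (adjusted p = 0.0132 as labelled and 0.000353 reversed). PSPH and PHGDH, enzymes of serine synthesis, averaged -0.94 ± 0.46 and -0.81 ± 0.27 in ErbB2-KD against -2.44 ± 0.38 and -1.78 ± 0.12 in labelled MUC4-KD. NUPR1, a stress-induced chromatin protein, averaged -1.64 ± 0.97 and -2.37 ± 0.24. ASNS, the asparagine synthetase whose promoter is printed above, did not pass in ErbB2-KD at -0.65 ± 0.69 (adjusted p = 0.143) and fell in labelled MUC4-KD at -2.68 ± 0.24 (adjusted p = 0.000246). ErbB2-KD array 1 stood apart in this list too, with a median of -0.15 against -0.73 to -1.06 on the other 3 arrays, and without it 10 members fell in ErbB2-KD. Without ErbB2-KD array 3 or array 4, 3 members fell.

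Mitotic genes rose in labelled MUC4-KD and were not called in ErbB2-KD. Of 40 tested, 32 rose in labelled MUC4-KD and none fell, none was called in ErbB2-KD by limma, and 13 were larger in MUC4-KD. The medians were 0.98 and 0.16. The experiments differed for 15 members as labelled and for 28 with MUC4-KD reversed. ANLN, an actin-binding protein of the cleavage furrow, read 1.72, 1.69, 1.75 and 1.76 in labelled MUC4-KD and -0.19, 0.02, -0.08 and 0.68 in ErbB2-KD. The groups did not overlap, and the difference passed in both directions (adjusted p = 0.00318 and 0.00106). KIF20A, a mitotic kinesin, averaged 1.73 ± 0.53 and 0.37 ± 0.72, and CDK1, the kinase that starts mitosis, averaged 1.42 ± 0.20 and 0.26 ± 0.62. The median of the list was -0.44 on ErbB2-KD array 1 and 0.45, 0.33 and 0.23 on arrays 2 to 4, and without array 1 5 members rose in ErbB2-KD. Without array 3 of MUC4-KD, 19 members rose, and the count of 13 larger in MUC4-KD was 3. That count was 5 without ErbB2-KD array 1, 3 or 4, 4 without MUC4-KD array 1 and 7 without MUC4-KD array 2. Genes of the G1/S transition and DNA replication did not move as a group, with 1 up and 1 down in ErbB2-KD and 4 up and 3 down in labelled MUC4-KD of 39. RRM2, a ribonucleotide reductase subunit, rose in labelled MUC4-KD at 1.25 ± 0.21 and was larger there.

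The list named for G1 cyclins and CDK inhibitors also holds CDKs, RB1 and the G-type cyclins CCNG1 and CCNG2. Of its genes, 15 were tested, and 1 was called in both, CCNG1, which rose at 0.60 ± 0.13 in ErbB2-KD and 0.93 ± 0.25 in labelled MUC4-KD. CCNG2, an atypical cyclin, rose in labelled MUC4-KD at 1.91 ± 0.23 and stood at 0.38 ± 0.30 in ErbB2-KD. CDKN1A, the p21 inhibitor, fell in labelled MUC4-KD at -1.22 ± 0.06 and stood at 0.35 ± 0.33 in ErbB2-KD. CDKN2B, the p15 inhibitor, fell in ErbB2-KD at -1.63 ± 0.62 (adjusted p = 0.00337) and stood at 0.23 ± 0.26 in labelled MUC4-KD, and it was larger in ErbB2-KD. In all, 1 rose and 1 fell in ErbB2-KD, and 5 rose and 3 fell in labelled MUC4-KD. Of 23 p53 targets, 1 fell in ErbB2-KD, and 2 rose and 7 fell in labelled MUC4-KD. GDF15, a stress cytokine of the TGF-beta family, averaged -3.06 ± 0.28 in labelled MUC4-KD and -0.15 ± 1.23 in ErbB2-KD.

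Hypoxia and glycolysis genes rose in labelled MUC4-KD, 24 of 35, with none lower. In ErbB2-KD 1 rose and 2 fell. The experiments differed for 17 members as labelled and for 17 with MUC4-KD reversed. The medians were 0.94 and -0.02, and 10 members were larger in MUC4-KD and none in ErbB2-KD. That count was 5 without MUC4-KD array 3, and 6 without MUC4-KD array 1 or ErbB2-KD array 3. BNIP3, a mitochondrial protein of mitophagy, moved in opposite ways as labelled. BNIP3 read -1.30, -1.70, -1.40 and -1.48 in ErbB2-KD and 2.26, 1.98, 2.66 and 1.99 in labelled MUC4-KD. Its groups lay far apart as labelled (adjusted p = 0.000121), and with MUC4-KD reversed both fell and the remaining difference in size still passed (adjusted p = 0.0286). ANGPTL4, a secreted inhibitor of lipoprotein lipase, read 4.37, 4.63, 4.22 and 2.48 in labelled MUC4-KD and -0.64, -2.79, -0.67 and -1.02 in ErbB2-KD. NDRG1 averaged 2.86 ± 0.27 against 0.43 ± 0.91. A dimmer NDRG1 probe rose in labelled MUC4-KD at 1.88 ± 1.06 (adjusted p = 0.00647) and did not differ as labelled (adjusted p = 0.0809). LDHA, which makes lactate, averaged 2.18 ± 0.26 against 0.05 ± 0.36 and did not overlap between the groups. CA9, a carbonic anhydrase at the cell surface, split both groups, at 2.95, 0.20, 3.65 and -0.09 in ErbB2-KD and at 2.45, 2.59, 2.63 and 0.40 in labelled MUC4-KD. Its ErbB2-KD mean of 1.68 ± 1.90 did not pass (adjusted p = 0.166) and its labelled MUC4-KD mean of 2.02 ± 1.08 did (adjusted p = 0.0383), but it was called in 5 of 8 fits that each left out 1 array.

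**Figure D2:**
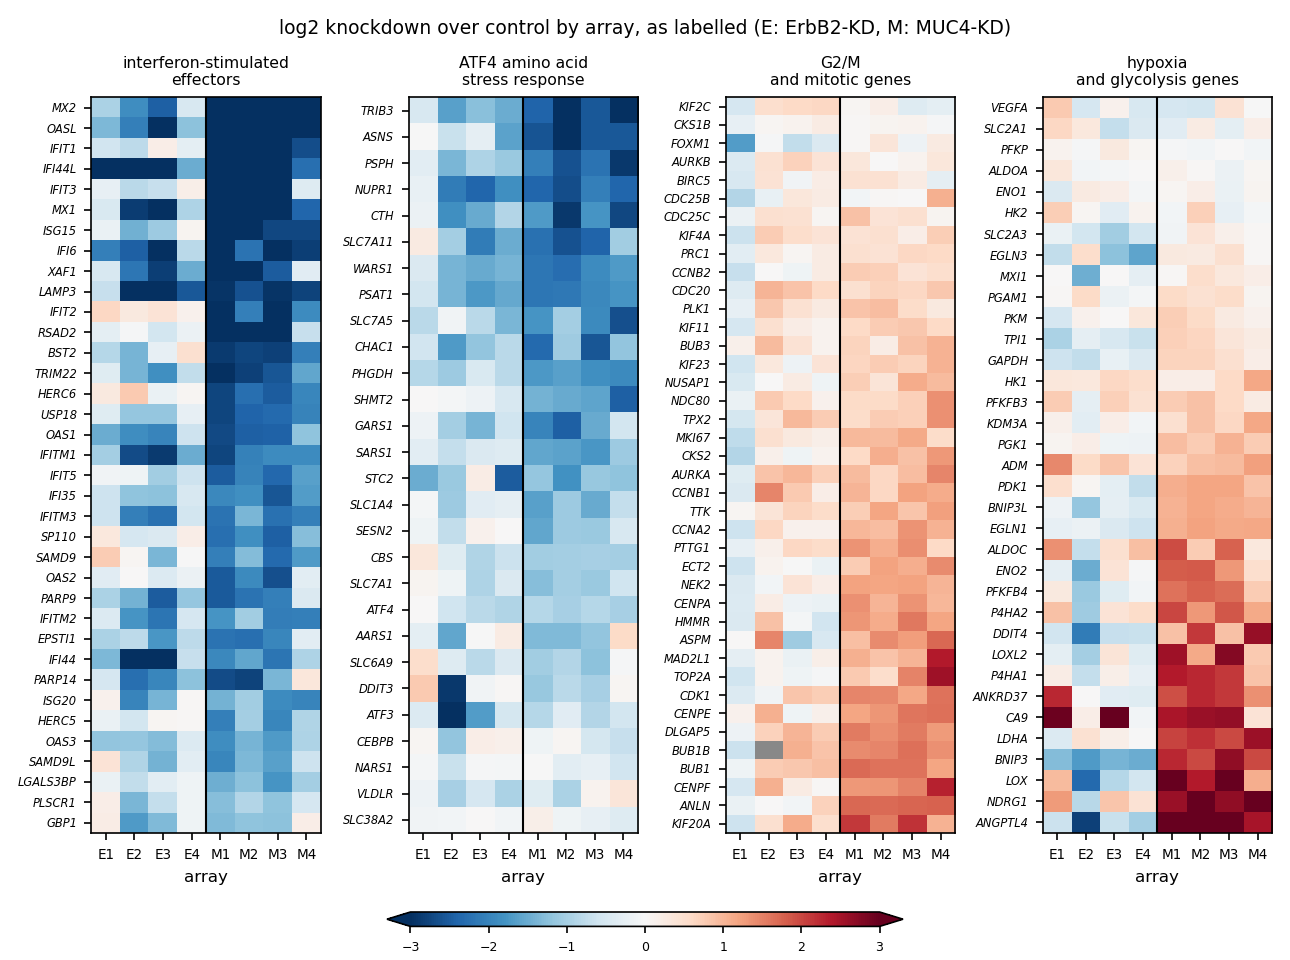
log2 knockdown over control (colour) of the tested members (rows) of 4 gene lists on the 4 ErbB2-KD arrays (E1 to E4) and the 4 labelled MUC4-KD arrays (M1 to M4), ordered by the MUC4-KD mean, with a grey cell where the spot was flagged. Most interferon and ATF4 genes are below 0 on both sides, with IFIT2 and HERC6 above 0 on average in ErbB2-KD, mitotic and hypoxia genes are above 0 mainly on M1 to M4, and BNIP3 is below 0 on E1 to E4.

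Genes higher in both knockdowns as labelled numbered 80, and 8 of them were in a list. AKAP12, a scaffold that anchors protein kinase A, read 2.24, 1.47, 2.02 and 3.03 in ErbB2-KD and 2.10, 1.96, 2.55 and 1.86 in labelled MUC4-KD. All 8 values were above 0 and overlapped, with means of 2.19 ± 0.65 (adjusted p = 0.00116) and 2.12 ± 0.30 (adjusted p = 0.000615). S100A2, a calcium-binding protein of epithelia, averaged 2.02 ± 0.89 and 1.82 ± 0.60. COL8A1, a short-chain collagen, averaged 1.86 ± 0.44 and 1.84 ± 0.99, with MUC4-KD array 4 at 0.41 and arrays 1 to 3 between 2.05 and 2.64. RAMP1, which partners the calcitonin receptor-like receptor, averaged 2.29 ± 1.09 and 1.36 ± 0.71, IGFBP6, a binding protein of insulin-like growth factors, averaged 1.69 ± 0.94 and 1.36 ± 0.54, and CRYBG2 averaged 2.37 ± 1.38 and 1.39 ± 0.66. The last 3 were called in labelled MUC4-KD in 5, 5 and 4 of 8 fits that left out 1 array, and CRYBG2 was called in ErbB2-KD in 5 of 8. Both dimmer CRYBG2 probes passed in ErbB2-KD (adjusted p = 0.0356 and 0.0322), and neither passed in labelled MUC4-KD (adjusted p = 0.167 and 0.227).

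Genes lower in both numbered 95, of which 33 were in a list and 22 in the 3 interferon and antigen presentation lists. ATP2C2, a calcium pump of the Golgi, read -1.48, -1.58, -2.46 and -1.93 in ErbB2-KD and -3.11, -2.94, -3.35 and -2.02 in labelled MUC4-KD. Both means passed, at -1.86 ± 0.44 (adjusted p = 0.00256) and -2.86 ± 0.58 (adjusted p = 0.000189), and they did not differ as labelled (adjusted p = 0.0727). Of 175 genes that moved the same way as labelled, 161 did not differ in size by the test, which does not show that they responded alike.

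Opposed genes formed the second class of genes called in both. Those named by the size of both changes differ strongly as labelled by that choice. KRT81, a hair keratin, read 3.46, 3.09, 3.34 and 1.95 in ErbB2-KD and -2.42, -3.63, -2.66 and -3.47 in labelled MUC4-KD. Every array was on its own side of 0, and the difference of -6.0 (SE 0.38) passed as labelled (adjusted p = 0.00018). With MUC4-KD reversed KRT81 would rise in both by nearly the same amount, 0.08 apart (adjusted p = 0.895). KRT81 has near-identical neighbours among the hair keratins, whose transcripts its probe may also read. ITGB7, the integrin beta chain that pairs with alpha-4 and alpha-E, read 2.56, 2.59, 2.53 and 1.82 in ErbB2-KD and -1.96, -2.80, -1.94 and -2.83 in labelled MUC4-KD. Its means were 2.38 ± 0.37 and -2.38 ± 0.50, 0.01 apart with MUC4-KD reversed (adjusted p = 0.991). SERPINA3, the antichymotrypsin inhibitor, mirrored it at -2.31 ± 0.45 and 2.31 ± 1.26, although MUC4-KD array 4 stood at 0.68 and array 2 at 3.75. A dimmer SERPINA3 probe averaged -0.99 ± 0.44 in ErbB2-KD, which did not pass (adjusted p = 0.0672), and 1.20 ± 0.77 in labelled MUC4-KD (adjusted p = 0.0122).

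THBS1, a matrix glycoprotein that activates TGF-beta, rose on all ErbB2-KD arrays, at 2.03, 5.93, 4.47 and 1.86, and fell on all MUC4-KD arrays as labelled, at -1.97, -2.23, -1.66 and -1.46. Its labelled MUC4-KD mean of -1.83 ± 0.34 passed (adjusted p = 0.0398) and was called in 4 of 8 fits that left out 1 array. ST6GALNAC5, a sialyltransferase of gangliosides, averaged 1.93 ± 0.50 and -1.68 ± 0.88. DYSF, the membrane repair protein dysferlin, averaged 2.01 ± 0.17 and -1.20 ± 0.42, and a further DYSF probe averaged 2.23 and -1.29. LIMS3, which has near-identical copies, averaged 1.28 ± 0.45 and -1.34 ± 0.54.

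In the other direction, SLC12A7, a potassium-chloride cotransporter, read -4.46, -4.06, -5.20 and -4.64 in ErbB2-KD and 1.52, 4.24, 1.98 and 2.41 in labelled MUC4-KD. Its means of -4.59 ± 0.47 and 2.54 ± 1.19 differed by 7.13 (SE 0.52, adjusted p = 0.000293). Of the other SLC12A7 probes, both dimmer, 1 was not well above background on any knockdown channel of ErbB2-KD, where it was at least 2.03-fold lower (adjusted p = 0.0111), and neither passed in labelled MUC4-KD. RTL6, a gene derived from a retrotransposon, was not well above background on any of the 4 knockdown channels of ErbB2-KD, so that it was at least 21.2-fold lower there than in the NT pool (adjusted p = 0.000335). RTL6 read 2.50, 3.16, 2.52 and 0.72 in labelled MUC4-KD. LTB, the membrane-bound lymphotoxin, read -1.87, -2.43, -1.52 and -2.34 in ErbB2-KD and 3.28, 4.38, 2.99 and 3.25 in labelled MUC4-KD, and P3H2, a collagen prolyl hydroxylase, averaged -2.59 ± 0.82 and 1.89 ± 0.73. COL5A1, a fibrillar collagen, read -3.47, -2.30, -3.67 and -2.77 in ErbB2-KD. Its labelled MUC4-KD values were 3.59, 0.92, 3.46 and 0.39, so that arrays 1 and 3 lay far above arrays 2 and 4.

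**Figure D3:**
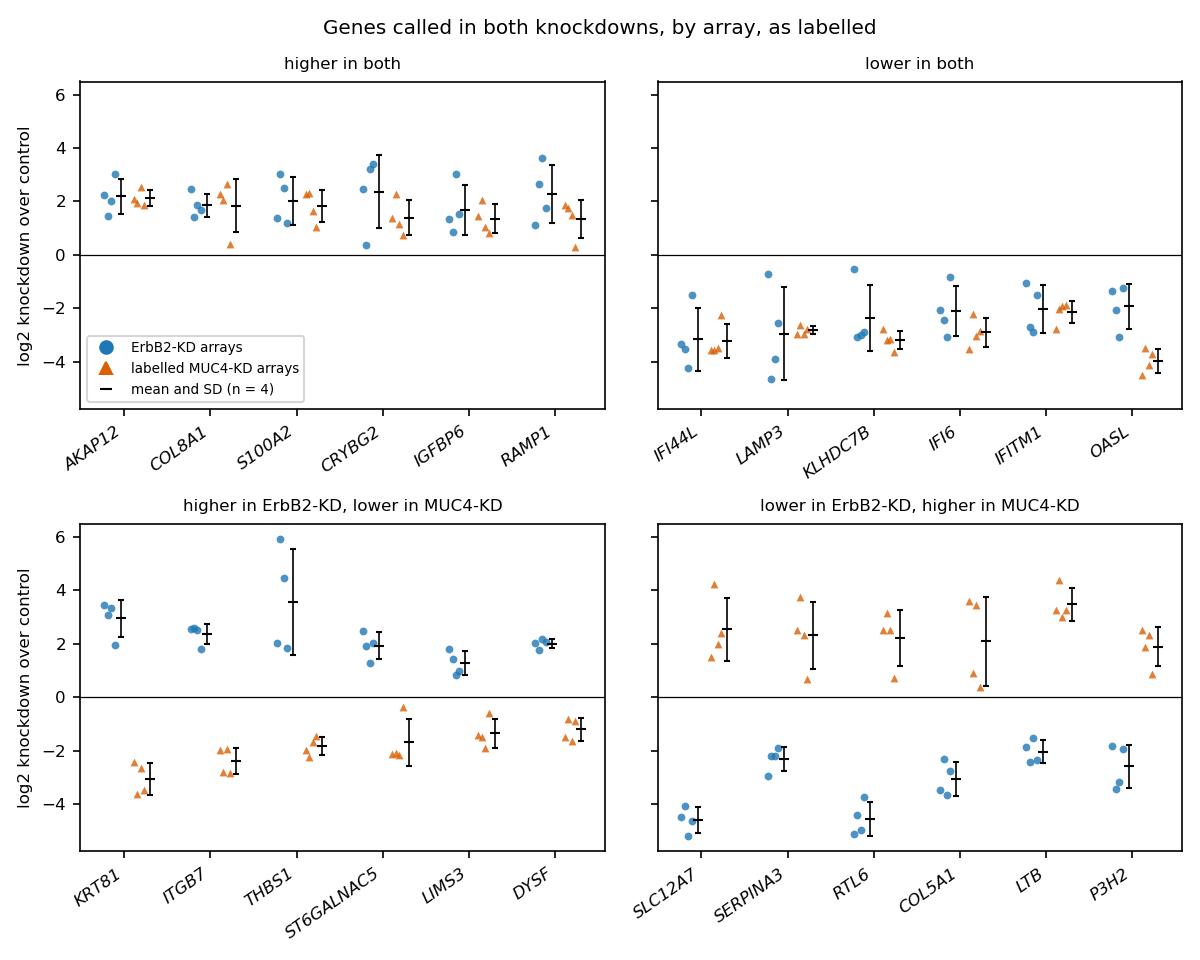
log2 knockdown over control (y axis) on each array of the 24 genes named among those called in both, in 4 panels by direction as labelled, with points for arrays, and bars for the mean and SD of 4 arrays. In the upper panels both groups lie on the same side of 0, as for AKAP12 and IFI44L. In the lower panels they lie on opposite sides, as for KRT81 and SLC12A7, and reversing MUC4-KD would exchange these readings.

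Lists with opposed medians as labelled were led by chemokines and NF-kB targets and by the matrix. Of 28 chemokines, cytokines and NF-kB targets, 1 rose and 8 fell in ErbB2-KD, and 11 rose and 3 fell in labelled MUC4-KD. The medians were -0.75 and 0.88, and all 12 members that differed as labelled were higher in MUC4-KD. With MUC4-KD reversed both medians would lie below 0, and 8 members differed, 3 higher and 5 lower in MUC4-KD. TNFAIP2, an NF-kB target, averaged -2.41 ± 1.5 and 1.49 ± 0.31, and NFKBIA, the inhibitor of NF-kB, averaged -1.06 ± 0.76 and 1.15 ± 0.20. CXCL3, a neutrophil chemokine, averaged -1.04 ± 0.71 and 1.15 ± 0.37, and these 3 were the opposed members. IL6 and TNF fell in ErbB2-KD, at -1.61 ± 0.91 and -1.82 ± 1.30, and stood at 0.81 ± 0.27 (adjusted p = 0.0595) and 1.11 ± 0.56 (adjusted p = 0.0686) in labelled MUC4-KD. CCL2, which attracts monocytes, was not well above background in the Mock pool on any array and was at least 10.6-fold higher in labelled MUC4-KD (adjusted p = 0.00321), while it read -2.42, -1.30, -1.52 and -1.26 in ErbB2-KD and did not pass (adjusted p = 0.13). IL1B went the other way, above 0 in both at 3.01 ± 2.64 (adjusted p = 0.0656) and 3.30 ± 1.09 (adjusted p = 0.017). The ErbB2-KD medians of the list were 0.27, -1.90, -0.91 and 0.05 on arrays 1 to 4, so the fall lay on arrays 2 and 3. Without ErbB2-KD array 3, 2 members fell and none was opposed, and without MUC4-KD array 1, 2 or 3, between 3 and 5 rose in labelled MUC4-KD and none was opposed. Without ErbB2-KD array 2 or array 4, or MUC4-KD array 1 or array 3, 5 members fell in ErbB2-KD.

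Of 26 collagens, laminins and matrix glycoproteins, 3 rose and 5 fell in ErbB2-KD and 10 rose in labelled MUC4-KD with none lower. The medians were -0.56 and 0.54, and of 15 members that differed as labelled 14 were higher in MUC4-KD. With MUC4-KD reversed both medians would lie below 0, and 7 members differed. COL5A1, COL4A1 and COL7A1 were opposed, and COL4A1, a basement membrane chain, averaged -1.51 ± 0.76 and 1.17 ± 0.53. COL8A1 and LAMA3, a laminin chain of epithelial basement membranes, rose in both, LAMA3 at 1.64 ± 0.49 and 1.12 ± 0.28. COL18A1, the source of endostatin, read -3.70, -0.87, -2.71 and -3.34 in ErbB2-KD and 0.65, 0.60, 0.63 and 0.09 in labelled MUC4-KD, and was larger in ErbB2-KD, as were COL4A2 and SRPX. Without MUC4-KD array 3, 3 members rose, and without MUC4-KD array 1 or 2, 6 did. The 15 members that differed as labelled were 5 without MUC4-KD array 3, 6 without MUC4-KD array 1, 7 without ErbB2-KD array 3, and 9 without ErbB2-KD array 1 or MUC4-KD array 2. The 3 opposed members were 0 without MUC4-KD array 3, and 1 without MUC4-KD array 1 or ErbB2-KD array 3. The 3 larger in ErbB2-KD were 0 without ErbB2-KD array 3 or 4 or MUC4-KD array 3, and 1 without MUC4-KD array 1 or 2. Without ErbB2-KD array 3, 2 members fell in ErbB2-KD. Of 6 fibroblast markers 1 was above background in every channel, FAP, which rose in labelled MUC4-KD at 0.96 ± 0.30 and stood at 0.23 ± 0.68 in ErbB2-KD, and its part in these values was not tested.

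Of 14 integrin subunits, 1 rose and 1 fell in ErbB2-KD, and 8 rose and 1 fell in labelled MUC4-KD. The experiments differed for 4 subunits as labelled and for 6 with MUC4-KD reversed. The count of 8 was 3 without MUC4-KD array 3 and 5 without array 1 or 2, and none fell in ErbB2-KD without ErbB2-KD array 3 or 4. ITGAV, the alpha chain of several matrix receptors, joined ITGB7 as opposed, at -0.38, -1.05, -0.74 and -0.82 in ErbB2-KD and at 1.13, 1.08, 1.34 and 1.49 in labelled MUC4-KD. ITGB6, which pairs with ITGAV, averaged -1.05 ± 0.46 (adjusted p = 0.0697) and 1.42 ± 0.85 (adjusted p = 0.00874), and the experiments differed as labelled (adjusted p = 0.0085). Of 12 keratins, 2 rose in ErbB2-KD and 3 rose and 5 fell in labelled MUC4-KD. Of 15 matrix proteases and plasminogen activators, 2 rose in ErbB2-KD, and 2 rose and 2 fell in labelled MUC4-KD. The protease counts in labelled MUC4-KD are near the shares of all genes. The keratin counts there lie above those shares, though the 5 that fell were 2 without MUC4-KD array 1 or 3. PLAUR, the urokinase receptor, was opposed and larger in ErbB2-KD at 1.65 ± 0.21 against -0.65 ± 0.60, while PLAT, the tissue plasminogen activator, rose in both at 1.24 ± 0.90 and 1.45 ± 0.16. MMP9, a gelatinase, averaged 1.67 ± 0.57 in labelled MUC4-KD and -0.14 ± 0.36 in ErbB2-KD. Of 8 clade A and B serpins, 1 fell in ErbB2-KD and 3 rose in labelled MUC4-KD.

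**Figure D4:**
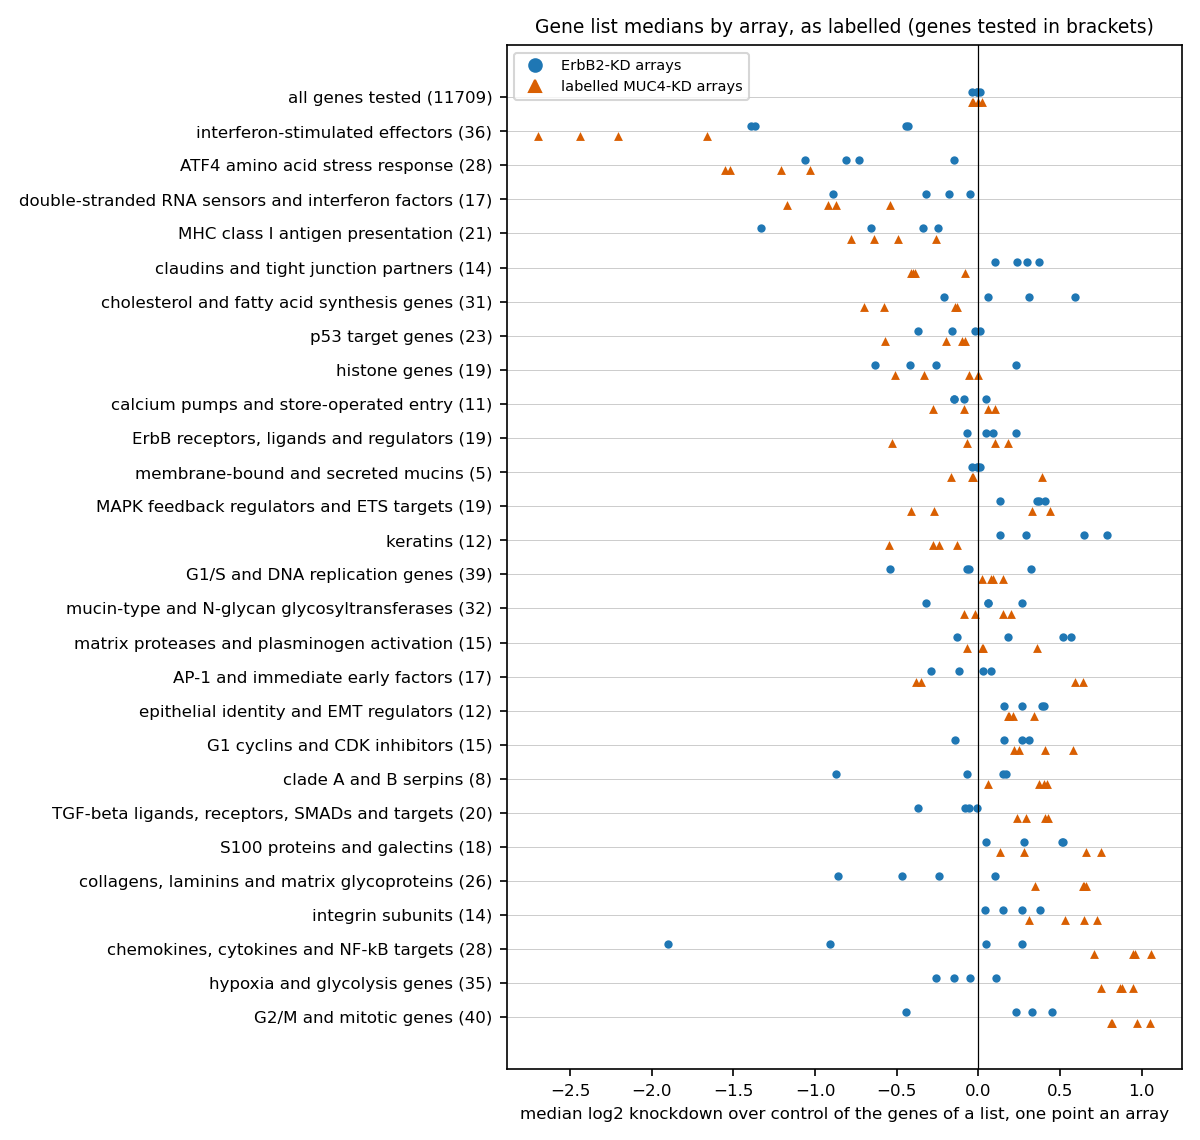
Median log2 knockdown over control of the tested genes of each list (x axis), 1 point for each array, for ErbB2-KD (circles) and labelled MUC4-KD (triangles). All genes tested lie near 0 on every array, interferon-stimulated effectors are below 0 on all 8 arrays, and ErbB2-KD arrays spread from -1.90 to 0.27 for chemokines, cytokines and NF-kB targets.

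Among 20 TGF-beta signalling genes, TGFBR2 rose in both and THBS1 was opposed. TGFBI, a secreted matrix protein induced by TGF-beta, read 4.37, 3.56, 4.15 and 4.12 in labelled MUC4-KD and 0.41, -0.71, 1.45 and 0.58 in ErbB2-KD, and was larger in MUC4-KD (adjusted p = 0.00196 as labelled and 0.000431 reversed). TGFBR2, the type II receptor, rose in both and by more in labelled MUC4-KD, at 0.83 ± 0.24 and 2.34 ± 0.20. SMAD3 averaged -0.53 ± 0.93 and 2.01 ± 0.26, and ID1, a target of BMP signals, averaged -0.44 ± 0.14 and 1.37 ± 0.46. The ligand TGFB1 averaged 0.50 ± 0.60 and 0.44 ± 0.39, and neither passed. BAMBI, a pseudoreceptor that blocks TGF-beta receptors, averaged -3.89 ± 1.57 in ErbB2-KD (adjusted p = 0.0132) and read 1.23, -2.35, 0.95 and -1.97 in labelled MUC4-KD. In all, 2 rose and 2 fell in ErbB2-KD and 7 rose and 2 fell in labelled MUC4-KD. The count of 7 was 4 without ErbB2-KD array 4 or MUC4-KD array 1, 2 or 3.

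Changes larger in MUC4-KD were led by TGFBI, MYEOV, ANGPTL4, VEGFC and NDRG1 among genes higher as labelled and by S100P, PSG8, PSG6, BEX2 and IFIT1 among genes lower. S100P, a calcium-binding protein often raised in pancreatic cancer, read -4.53, -4.25, -4.42 and -3.73 in labelled MUC4-KD. In ErbB2-KD S100P read 1.18, -0.40, -0.68 and -0.12, so the groups lay apart, and the test passed in both directions (adjusted p = 0.000978 and 0.000431). VEGFC, a lymphangiogenic growth factor, averaged 2.63 ± 0.57 against 0.03 ± 0.29, and MYEOV averaged 3.06 ± 0.62 against 0.22 ± 0.71. BEX2 averaged -3.66 ± 0.26 against -0.67 ± 1.84, with ErbB2-KD arrays from -2.57 to 1.62, and its difference as labelled was called in 4 of 8 fits that left out 1 array. PSG8 and PSG6, pregnancy-specific glycoproteins whose probes may read each other's transcripts, averaged -3.12 ± 1.55 and -3.03 ± 1.49, with array 4 at -0.81 and -0.84 and the other arrays at -3.35 or lower. OVOL1, a repressor that keeps epithelial identity, averaged -3.40 ± 0.65 in labelled MUC4-KD against 0.85 ± 0.94 in ErbB2-KD.

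Changes larger in ErbB2-KD were led by HSD17B12, MLPH, C6orf15 and MAGED1 among the genes reported as higher and by H2AJ, DET1, C1S, KLF13 and H2AC11 among genes lower. MLPH, the melanosome linker melanophilin, read 3.10, 3.33, 3.98 and 2.31 in ErbB2-KD and 0.29, -0.43, 0.23 and -0.34 in labelled MUC4-KD. The groups did not overlap, and the difference passed in both directions (adjusted p = 0.00157 and 0.000982). Of the dimmer MLPH probes, 1 averaged 0.53 ± 0.37 in ErbB2-KD and did not pass (adjusted p = 0.0672). Another was at least 1.84-fold higher in ErbB2-KD (adjusted p = 0.0269), with an NT channel not well above background on any array. Neither differed with MUC4-KD reversed (adjusted p = 0.0886 and 0.0906). HSD17B12, an enzyme of fatty acid elongation, read 5.45, 3.30, 4.70 and 3.41 in ErbB2-KD, where the NT channel was well above background on 1 of 4 arrays, and -1.58, 0.58, -1.18 and 0.57 in labelled MUC4-KD. C6orf15 averaged 3.61 ± 1.19 against 0.94 ± 0.86. MAGED1 averaged 2.73 ± 0.61 against -0.27 ± 1.79, and KLF13, a repressor of the Krueppel-like family, averaged -3.64 ± 1.51 against 0.95 ± 1.34. Both differed in their reversed comparison in only 1 of 8 fits that left out 1 array. A dimmer KLF13 probe averaged -0.96 ± 0.50 in ErbB2-KD and did not pass (adjusted p = 0.0559). It did not differ as labelled or reversed either (adjusted p = 0.0645 and 0.13).

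H2AJ, a histone H2A variant, read -3.24, -2.78, -3.65 and -3.0 in ErbB2-KD and 0.60, -0.08, 0.43 and -0.66 in labelled MUC4-KD. A second H2AJ probe averaged -4.88 ± 0.35 in ErbB2-KD. In labelled MUC4-KD that probe read 3.33, 0.03, 3.01 and -1.07, and its mean of 1.32 ± 2.18 did not pass (adjusted p = 0.14). H2AC11, a replication-dependent H2A whose sequence is near-identical to other H2A genes, averaged -2.56 ± 0.55 against -0.15 ± 0.24. Of 19 histone genes in the list, which does not hold H2AC11, 1 fell in each experiment. DET1, a subunit of a ubiquitin ligase complex, averaged -3.65 ± 0.56 against 0.56 ± 0.40, with the knockdown channel of ErbB2-KD well above background on 1 of 4 arrays. C1S, a complement protease, read -1.89, -3.77, -4.25 and -2.42 in ErbB2-KD and -0.17, -0.06, -0.32 and 0.31 in labelled MUC4-KD.

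**Figure D5:**
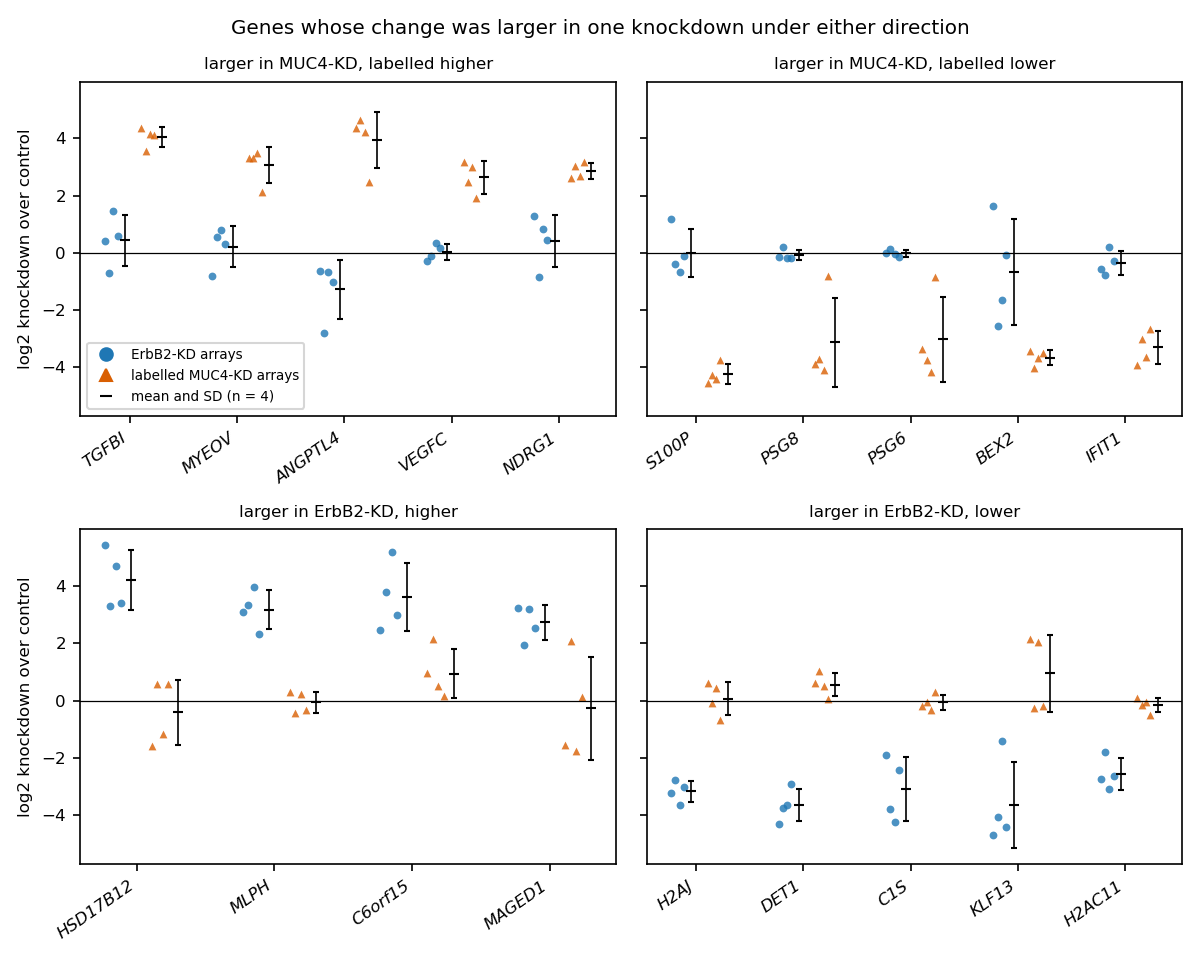
log2 knockdown over control (y axis) on each array of named genes whose size of change was larger in 1 knockdown under both directions, with points for arrays, and bars for the mean and SD of 4 arrays. In the upper panels the MUC4-KD arrays lie away from 0, as for TGFBI and S100P, and in the lower panels the ErbB2-KD arrays do, as for MLPH and H2AJ. MUC4-KD arrays 1 and 3 lie together and apart from arrays 2 and 4 for HSD17B12 and KLF13.

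Calls in both experiments numbered 2 among ErbB genes, 1 among MAPK genes and 1 among AP-1 genes, where they numbered 260 of all 11709 genes. Of 19 ErbB receptors, ligands and regulators, 2 rose in ErbB2-KD and 5 rose and 4 fell in labelled MUC4-KD. AREG, a ligand of the EGF receptor, was opposed at 2.02, 0.02, 2.20 and 2.09 in ErbB2-KD and -1.78, -0.50, -2.02 and -0.39 in labelled MUC4-KD, with both means just inside the threshold (adjusted p = 0.0497 and 0.0494). Neither AREG nor PTPN12 was called in ErbB2-KD without ErbB2-KD array 1, 3 or 4 or without MUC4-KD array 1, 2 or 3. BTC, the ligand betacellulin, averaged -1.38 ± 0.66 in labelled MUC4-KD against 0.06 ± 0.28. PTPN12, a phosphatase of ErbB receptors, rose in both at 0.48 ± 0.19 and 0.74 ± 0.10. Of 19 MAPK feedback regulators and ETS targets, 3 rose in ErbB2-KD, and 4 rose and 3 fell in labelled MUC4-KD. The count of 3 in ErbB2-KD was 0 without ErbB2-KD array 3 or 4, and 1 without ErbB2-KD array 1 or MUC4-KD array 1 or 3. Of 17 AP-1 and immediate early factors, 1 rose and 1 fell in ErbB2-KD, and 4 rose and 2 fell in labelled MUC4-KD. The median of that list was -0.38 and -0.35 on MUC4-KD arrays 1 and 3 and 0.64 and 0.59 on arrays 2 and 4. JUNB, an AP-1 subunit, was opposed at -0.83 ± 0.37 and 0.87 ± 0.48, and FOSB averaged -1.71 ± 0.34 in labelled MUC4-KD against 0.10 ± 0.12.

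The remaining lists are given by their counts, and a count near the share of all genes marks no response of the list. In labelled MUC4-KD those shares were 14.1% up and 13.4% down, near the 5 up and 5 down of 32 glycosyltransferases. Of 5 mucins tested none was called in either experiment at the gene's brightest probe. Of 14 claudins and tight junction partners none was called in ErbB2-KD, and 2 rose and 3 fell in labelled MUC4-KD. Of 12 epithelial identity genes, 1 rose in ErbB2-KD, and 1 rose and 2 fell in labelled MUC4-KD. Of 32 glycosyltransferases 1 rose and 3 fell in ErbB2-KD and 5 rose and 5 fell in labelled MUC4-KD, and ST6GAL1, a sialyltransferase of N-glycans, fell in both at -0.84 ± 0.23 and -1.14 ± 0.40. Of 18 S100 proteins and galectins 1 rose in ErbB2-KD, and 5 rose and 2 fell in labelled MUC4-KD. Of 31 genes of cholesterol and fatty acid synthesis 1 rose in ErbB2-KD, and 2 rose and 7 fell in labelled MUC4-KD. Of 11 calcium pumps and store-operated entry genes 1 fell in ErbB2-KD, and 2 rose and 1 fell in labelled MUC4-KD. Over the 8 fits that left out 1 array, the counts in ErbB2-KD were 0 to 4 up and 0 to 3 down in each of these lists, and in labelled MUC4-KD 0 to 6 up and 0 to 8 down. In the lists of G1/S genes, G1 cyclins, p53 targets, keratins, matrix proteases, serpins and AP-1 factors the same fits gave 0 to 4 up and 0 to 2 down in ErbB2-KD, and 1 to 8 up and 0 to 7 down in labelled MUC4-KD.

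The counts depend on how the dyes were balanced and on which arrays enter. Of the called probes, 39.2% were higher in ErbB2-KD and 56.2% in labelled MUC4-KD, against 22.6% and 87.5% when each array was centred on its median in place of loess. Of the probes that differed, 65.4% were higher in MUC4-KD as labelled and 47.4% with MUC4-KD reversed, against 95.1% and 17.6% under median centring. The list counts also fell under median centring. In labelled MUC4-KD 1 mitotic gene rose, 2 ATF4 targets fell and 8 hypoxia genes rose, with list medians of 1.14, -1.25 and 1.16. No member of these lists was then called in ErbB2-KD. On array 4 of MUC4-KD several genes lay closer to 0, and its log ratios correlated with those of arrays 1 to 3 at 0.33 to 0.53, while those 3 correlated with each other at 0.68 to 0.83. ErbB2-KD arrays correlated at 0.20 to 0.72. Without MUC4-KD array 4, 923 genes were larger in MUC4-KD, and without MUC4-KD array 3, 108 were.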

How the data were processed

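Agilent two-colour whole human genome arrays (design annotated on hg18, Feature Extraction 10.5.1.1 per the file headers) compared each knockdown RNA with its control pool, 4 arrays per experiment, and dye orientation was balanced 2 and 2 within each. The deposited scanner intensity values are not normalized, and the deposited log10 ratio of Cy5 over Cy3 is the software's background-subtracted, dye-normalized value. The deposited value table equals those log10 ratios with swapped arrays turned, within 5e-06.

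Median signals were background-corrected (normexp, offset 50), loess-normalized and turned, and flagged spots were left out, so a few values rest on 3 arrays. One limma fit (limma 3.58.1, R 4.3.3) over all 8 arrays estimated both responses, their difference and the difference with MUC4-KD reversed. It gave each probe 1 spread shared by both experiments, so ErbB2-KD p-values rest in part on the MUC4-KD arrays. A small MUC4-KD SD can thus lower the p-value of a widely spread ErbB2-KD mean, as for LAMP3 (SD 1.72 against 0.15) and THBS1 (1.97 against 0.34). A probe was tested where, in both experiments, either the knockdown or the control channel was above background by the software's flag on all 4 arrays, with Benjamini-Hochberg adjustment over 23077 probes and a threshold of 0.05. Accessions were matched to RefSeq symbols for 25398 of 41000 probes, and KRT86 had no match. Named genes were ERBB2, MUC4 and others fixed by name, 6 for each sign class of genes called in both by the smaller change, 5 for each direction of the larger classes, and up to 6 members of each list, in addition to members in a class. Members and lists were chosen with earlier results of these data known, and they support nothing independently. A few genes named by this rule are not reported here. The labels name clones for ErbB2-KD only, so p-values may measure technical spread in MUC4-KD, and through the shared spread in part in ErbB2-KD too. Replicate numbers did not pair the samples, since deviations of arrays of the same number correlated at -0.24 to -0.05. Promoter sequences are from RefSeq. The number of arrays limits precision. Scripts were tested on simulated data.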

Additional observations from a re-analysis of the deposited data

Results flagged for a closer look

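Of 102 groups of 4 arrays tested, 8 held an array that stood apart from the other 3, where chance gives about 1 in 20. On MUC4-KD array 4 these were IFI44L at -2.26, ST6GALNAC5 at -0.36, MYEOV at 2.14, PSG8 at -0.81 and CA9 at 0.40, each nearer to 0 than arrays 1 to 3. In ErbB2-KD they were KLHDC7B on array 1 at -0.52, ITGB7 on array 4 at 1.82 and PSG8 on array 2 at 0.20.

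The 12 opposed genes named were chosen for large changes called in both experiments with opposite signs. Their log2 ratios differed between the experiments as labelled (MUC4-KD minus ErbB2-KD), which follows from that choice and is no separate support. They were lower in MUC4-KD for KRT81 at -6.0, THBS1 at -5.40, ITGB7 at -4.76, ST6GALNAC5 at -3.61, DYSF at -3.21 and LIMS3 at -2.62. They were higher for SLC12A7 at 7.13, LTB at 5.51, COL5A1 at 5.14, SERPINA3 at 4.62 and P3H2 at 4.48. The fitted difference of RTL6 was 6.79, which has no place in this order, since its ErbB2-KD level was not well above background on any array.

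With MUC4-KD reversed, the log2 ratios of the 12 named genes called in the same direction as labelled differed, among them OASL, which also differed as labelled. Of the opposed genes, SLC12A7, RTL6, LTB and DYSF differed in this direction too. Over the 8 fits that left out 1 array, that difference was called in 8 for RTL6, 7 for LTB, 3 for SLC12A7 and 2 for DYSF. It did not pass at a further DYSF probe (adjusted p = 0.122) or at 2 further SLC12A7 probes (adjusted p = 0.0806 and 0.675). For the first set the difference was 6.36 for IFI44L, 5.87 for OASL, 5.75 for LAMP3, 5.54 for KLHDC7B, 4.99 for IFI6 and 4.15 for IFITM1. It was -4.31 for AKAP12, -3.84 for S100A2, -3.76 for CRYBG2, -3.70 for COL8A1, -3.64 for RAMP1 and -3.05 for IGFBP6.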

How the results depend on the processing

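Counts are given in a fixed order, namely probes called in ErbB2-KD, in labelled MUC4-KD, differing as labelled and differing reversed, then genes changed alike, opposed, larger in MUC4-KD and larger in ErbB2-KD (1068, 6147, 2479, 4220, 175, 85, 411 and 160). All 8 stayed within 1.5 times under an offset of 10, the Feature Extraction ratios, the 3 other filters, slide as a block and a trended robust fit, and the 4 gene counts did with the mean of a gene's probes. A similar count did not mean the same genes. Of the 175, 85, 411 and 160 genes, 131, 63, 334 and 122 stayed in their class under the Feature Extraction ratios. Without a filter on dim probes 111, 49, 255 and 93 stayed, and with slide as a block 131, 65, 316 and 130. Median centring left 31, 441, 82, 85, 0, 5, 5 and 1, and the methods' t-test after adjustment 0, 123, 694, 1754, 0, 0, 134 and 46, where 4518 probes had an unadjusted limma p under 0.05 in ErbB2-KD. Averaging MUC4-KD arrays 1 with 3 and 2 with 4 moved 7 counts, to 1545, 626, 1839, 68, 29, 96 and 31, from the second on. Each pair held 1 array of each dye orientation, and the labels do not say whether a pair shares 1 RNA. Arrays 1 and 3 were also on the same slide, and arrays 2 and 4 were not. Requiring a 2-fold change at an unadjusted p under 0.01 gave 624 and 1509 called, 2454 differing reversed, and 73, 39 and 217 genes of the first 3 classes. Separate fits, with a spread for each experiment, gave 373 probes in ErbB2-KD and 62 and 39 genes changed alike and opposed. A dye term gave 136 opposed and 618 larger in MUC4-KD. The replicate number as a block, which does not pair these samples, gave 513, 3962, 783, 2472, 88, 32, 139 and 70. Leaving out each array gave 363 to 1275, 1798 to 7457, 737 to 4346, 1676 to 6102, 64 to 233, 25 to 116, 108 to 923 and 53 to 188. The lowest were without MUC4-KD array 3, except for the first, which was without ErbB2-KD array 3, and the highest were without MUC4-KD array 4, except for the last, which was without ErbB2-KD array 2. No value that passed the test changed its sign for the 51 genes run under these alternatives, which leave out list members named for their list alone. The causes were not tested.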
